A study of Homo sapiens with 26 samples.

Results

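The UCA1 locus on chromosome 19 was followed through 26 RNA-seq libraries of a study of resistance to BET bromodomain inhibition. Its members are 6 of the 63129 genes in the deposited expression table: UCA1, the adjacent short gene AC004510.2, and the cytochrome P450 genes CYP4F2, CYP4F3, CYP4F11 and CYP4F12. They were taken by gene symbol. UCA1 and AC004510.2 were picked because they are on in both resistant A375 clones and nearly silent in parental cells, so that difference describes the choice and received no test.

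The libraries fall into 13 groups of 2. A375, an established human melanoma line, was represented by parental cells and by the resistant clones 1 and 4, each 1 clone. Each of these populations was taken untreated at 0 h, after 6 h in the vehicle DMSO, and after 6 h in 1 uM CPI203, an inhibitor of BET proteins. NOMO-1, a human line from an acute myeloid leukaemia, was represented by parental cells and 1 tolerant population, each after 24 h in DMSO or in 1 uM CPI203. The drug history of the clones and the tolerant population just before these treatments is not given in the sources used here.

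BET proteins bind acetylated histones through their bromodomains and recruit factors that promote transcription elongation, and BET inhibitors displace them from chromatin. UCA1, named for urothelial cancer, is a long non-coding RNA reported as raised in several carcinomas and studied for roles in proliferation and drug resistance. The CYP4F genes form a cluster around it. They encode microsomal monooxygenases that hydroxylate fatty acids, leukotrienes and the side chain of vitamin K, with their main sites in liver, kidney and, for CYP4F3, neutrophils.

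UCA1 (ENSG00000214049, lincRNA, plus strand) lies at chr19:15939756-15947130 in hg19, the build of the deposited coordinates. AC004510.2 (ENSG00000248453) lies at chr19:15947286-15947865, a span of 580 bp that starts 155 bases beyond the end of UCA1. The coding neighbours are CYP4F2 (ENSG00000186115) 41.7 kb after UCA1 and CYP4F11 (ENSG00000171903) 76.1 kb after it. CYP4F12 (ENSG00000186204) lies 132 kb and CYP4F3 (ENSG00000186529) 166 kb before it. A gene on the minus strand, AC004510.3, overlaps UCA1, and the sources used here do not say whether the counting used strand, so reads of that overlap cannot be told apart.

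The CYP4F genes are paralogs. The coding sequences of CYP4F2 and CYP4F3 are 90.8% identical, and the other pairs among CYP4F2, CYP4F3, CYP4F11 and CYP4F12 are 83.3% to 88.6% identical. The longest stretch common to CYP4F2 and CYP4F3 is 115 bases, at the end of both coding sequences (positions 1449 to 1563).
CYP4F2 and CYP4F3, shared stretch: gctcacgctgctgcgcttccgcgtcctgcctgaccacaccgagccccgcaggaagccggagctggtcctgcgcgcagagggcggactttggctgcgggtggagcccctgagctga
Of all 50-base words in the coding sequence, CYP4F2 and CYP4F3 share 15.5%, against 0% to 1.25% for the other pairs. Reads from the shared part of CYP4F2 and CYP4F3 could be split between them by the counting, so values of that pair are uncertain. The read length is not given in the sources used here.

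Before the results, some facts on the libraries bear on them. Values are FPKM, fragments scaled to transcript length and to the mapped fragments of the library, as the authors estimated them, and no read totals are given, so absolute depth is unknown. The smallest steps between values put relative depth at 0.863 to 1.27 in A375 and 1.00 to 1.14 in NOMO-1. For the 4 untreated clone libraries a label field says parental while the title names the clone, and the title was followed. These 4 libraries held GAPDH at 6362 to 8344 FPKM, against 2083 to 4146 in the other 14 A375 libraries. Replicates lay furthest apart in parental DMSO, clone 4 DMSO and clone 4 CPI203. Nothing in the labels says that the replicates are separate cultures, so p-values measure only the spread between these libraries.

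Marker genes were read for the labelled and for other cell types. Of 9 melanoma and melanocyte markers 5 averaged 1 FPKM or more both in parental cells and in the clones (SOX10, MITF, S100B, CSPG4 and MIA), while PMEL, MLANA, TYR and DCT did not. Their summed level was 779 to 1032 FPKM in parental libraries and 294 to 634 in clones. Of 7 myeloid markers found, 6 reached 1 FPKM in NOMO-1. Sums of other markers also moved with the clones: 22.6 to 42.6 FPKM for myeloid markers, carried by CD33 and LYZ, against 3.73 to 6.07 in parental cells, and 135 to 254 for epithelial markers, carried by KRT8 and KRT18, against 93.5 to 120. None of the 4 urothelial or 4 hepatocyte markers found reached a mean of 1 FPKM in parental A375 or the pooled clones. Their cell types are those best known for UCA1 and the CYP4F enzymes. The urothelial sum ran from 0.128 to 3.71 FPKM in clone libraries, overlapping the 0.0501 to 0.590 of parental ones. The hepatocyte sum ran from 0 to 0.156 FPKM in clone libraries and from 0.116 to 0.217 in parental ones. The part of these markers in the results on the locus was not tested.

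UCA1 was nearly silent in parental A375 cells and ran from 70.6 to 1145 FPKM in the clones. In parental libraries it stood at 0.653 and 0.320 FPKM untreated, 0.383 and 0.237 in DMSO, and 0.437 and 0.626 in CPI203. In clone 1 it stood at 433 and 407 FPKM untreated, 70.6 and 72.3 in DMSO, and 196 and 193 in CPI203. In clone 4 it stood at 1140.1 and 1145 FPKM untreated, 147 and 113 in DMSO, and 272 and 231 in CPI203. Every clone library lay above every parental library, and in each clone the 3 conditions did not overlap: untreated was highest, CPI203 intermediate and DMSO lowest. In these bulk libraries, more cells with the transcript and more of it per cell cannot be told apart.

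The ratio of group means, clone over parental, was 863-fold for clone 1 and 2347-fold for clone 4 in untreated cells. It was 231-fold and 419-fold in DMSO, and 366-fold and 473-fold in CPI203. The DMSO and CPI203 values do not rest on the libraries with conflicting labels. These ratios describe what chose the gene. As background, the limma fit over all 16935 genes called 48.1% of genes in clone 1 and 51.1% in clone 4 untreated, 25.2% and 31.4% in DMSO, and 24.6% and 29.7% in CPI203, in either direction. UCA1, AC004510.2 and CYP4F2 entered that fit only through the clones, CYP4F2 only through the 4 untreated clone libraries, since a gene had to reach 1 FPKM in at least 2 libraries.

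**Figure D1:**
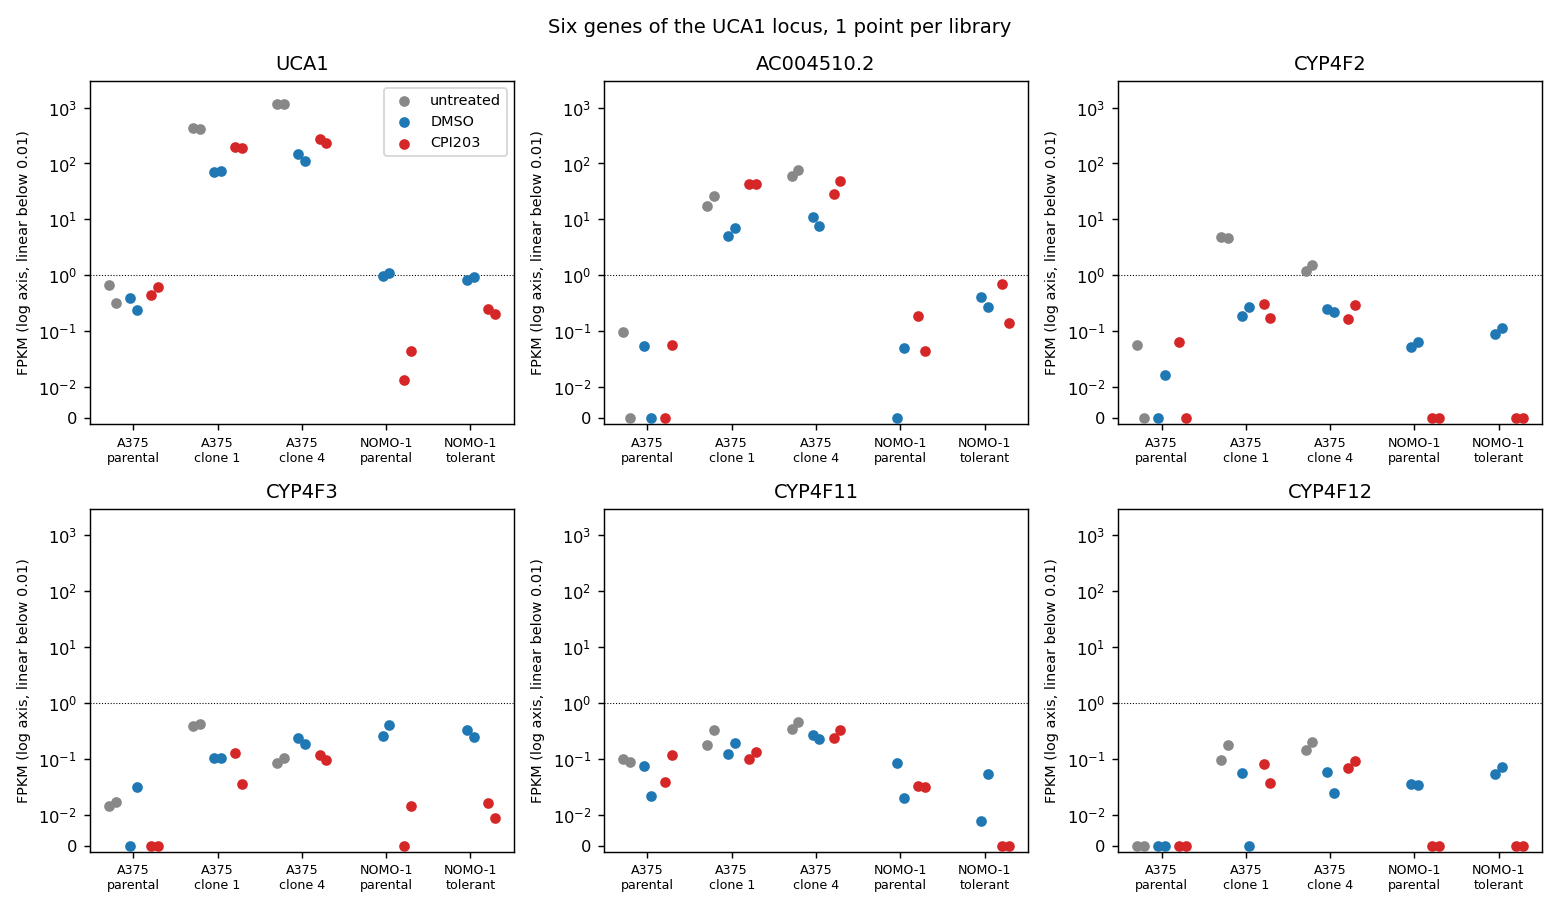
FPKM of the 6 members in each of the 18 A375 libraries and 8 NOMO-1 libraries, on a log scale that turns linear near 0, by population and condition, with each point a library and a dotted line at 1 FPKM. UCA1 and AC004510.2 stand apart in all 12 clone libraries, CYP4F2 exceeds 1 FPKM only in the 4 untreated clone libraries, and the other CYP4F genes stay below 1 FPKM throughout.

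Within the clones, CPI203 raised UCA1 over DMSO. In clone 1 the mean was 194 ± 2.27 FPKM in CPI203 and 71.4 ± 1.23 in DMSO (SD, n = 2 each), a 2.72-fold ratio of means. The change was 1.43 ± 0.14 (SE) on the log2(FPKM + 1) scale, with a limma adjusted p of 2.07e-05. Of all genes, 22.0% passed, and 8.41% of all genes passed as higher. Shares given below as higher or lower are likewise of all genes fitted. In clone 4 the means were 251 ± 28.98 and 130 ± 23.8 FPKM, a 1.94-fold ratio, with a log2 change of 0.96 ± 0.14 and adjusted p = 0.000352, where 23.6% passed, 8.86% higher. When the clone 4 DMSO and CPI203 libraries alone were fitted, this second call was lost (adjusted p = 0.136).

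In parental cells the CPI203 and DMSO libraries did not overlap either, at 0.532 ± 0.133 against 0.310 ± 0.104 FPKM, a 1.72-fold ratio of means. The log2 change of 0.23 ± 0.14 did not pass (adjusted p = 0.220, where 36.4% of genes passed). Without the 3 libraries furthest from their replicates, parental DMSO replicate 1 among them, it was 0.31 and passed (adjusted p = 0.0447).

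The response to CPI203 was larger in clone 1 than in parental cells on the log2(FPKM + 1) scale. That difference was 1.21 ± 0.19 (adjusted p = 0.00499, where 1.91% of genes passed). It depends on the pseudocount, because adding 1 flattens the change of a gene below 1 FPKM, as UCA1 is in parental cells: with 0.1 added the difference was 0.81 and did not pass (adjusted p = 0.480, and 0.609 also without the filter). For clone 4 the difference was 0.73 ± 0.19 and did not pass (adjusted p = 0.0817, where 2.29% passed). That call also turned on libraries: it passed at 0.92 without clone 4 DMSO replicate 1 (adjusted p = 0.0233) and at 0.96 without the 3 libraries furthest from their replicates (adjusted p = 0.0144).

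DMSO-treated clones held far less UCA1 than untreated ones. The mean fell from 420 ± 18.9 to 71.4 ± 1.23 FPKM in clone 1, 5.88-fold lower, a log2 difference of -2.54 (adjusted p = 5.19e-08, where 43.2% of genes passed, 12.9% lower). In clone 4 it fell from 1142 ± 3.20 to 130 ± 23.8 FPKM, 8.81-fold lower, a log2 difference of -3.14 (adjusted p = 1.90e-08, where 41.3% passed, 13.0% lower). Over all genes the median log2 difference was 0.15 in clone 1 and 0.11 in clone 4, so UCA1 moved against the bulk of genes. In parental cells the log2 difference was -0.18 and did not pass (adjusted p = 0.388, where 22.5% passed). This comparison shares its DMSO libraries with the one above, it rests on the 4 libraries with conflicting labels and high GAPDH, and in it time in culture, vehicle and any difference in handling cannot be told apart.

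Against untreated cells, a comparison added after the values were seen, the CPI203 libraries also held less UCA1. The log2 difference was -1.11 in clone 1 (adjusted p = 7.95e-05, where 32.4% of genes passed) and -2.18 in clone 4 (adjusted p = 9.08e-07, where 16.7% passed).

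Clone 4 held more UCA1 than clone 1 in untreated cells and in DMSO. The log2 difference was 1.44 untreated, a 2.72-fold ratio of means (adjusted p = 3.45e-05, where 10.8% of genes passed), and 0.84 in DMSO (adjusted p = 0.00203, where 10.2% passed). The second of these was lost when only the compared DMSO libraries were fitted (adjusted p = 0.204). In CPI203 the difference of 0.36 did not pass (adjusted p = 0.141, where 7.09% passed), though it passed at 0.48 without the 3 libraries furthest from their replicates (adjusted p = 0.0135). In order of mean level the A375 groups ran from clone 4 untreated through clone 1 untreated, clone 4 CPI203, clone 1 CPI203, clone 4 DMSO and clone 1 DMSO to the 3 parental groups. Untreated parental libraries overlap those of parental DMSO and parental CPI203.

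AC004510.2, for which the deposited table gives only a symbol, an identifier and a position, had the pattern nearest to UCA1 over the 9 A375 group means. In parental libraries it was listed at 0.0977 and 0 FPKM untreated, 0.0530 and 0 in DMSO, and 0 and 0.0566 in CPI203. In clone 1 it stood at 17.1 and 26.0 FPKM untreated, 5.01 and 6.98 in DMSO, and 42.2 and 43.1 in CPI203. Clone 4 held 60.8 and 76.7 FPKM untreated, 11.2 and 7.61 in DMSO, and 28.2 and 48.0 in CPI203. Clones and parental libraries did not overlap, and DMSO was the lowest condition of each clone.

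Once rescaled by relative depth, the AC004510.2 values were whole multiples of the smallest non-zero one, within 0.003 of a whole number. They came to 0 to 2 steps in parental libraries and 100 to 1987 in clone libraries. No fold change against parental cells is given, since those values sit at the lowest step the table holds.

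CPI203 raised AC004510.2 over DMSO in both clones. In clone 1 the means were 42.6 ± 0.599 against 5.99 ± 1.39 FPKM, a 7.11-fold ratio, with a log2 change of 2.66 ± 0.25 (adjusted p = 2.07e-05). In clone 4 they were 38.1 ± 14.0 against 9.42 ± 2.56 FPKM, a 4.05-fold ratio, with a log2 change of 1.88 ± 0.25 (adjusted p = 0.000236). The clone 4 call was lost when only those 4 libraries were fitted (adjusted p = 0.0740). The difference from the parental response was 2.65 ± 0.36 in clone 1 (adjusted p = 0.00140) and 1.88 in clone 4 (adjusted p = 0.0137). Parental values this close to 0 leave little room for a response once 1 is added. With 0.1 added the clone 1 difference passed with the filter kept, but without the filter neither difference passed (adjusted p = 0.0560 and 0.207). The second was lost without either parental CPI203 replicate 1 (adjusted p = 0.0647) or replicate 2 (adjusted p = 0.0512), with a pseudocount of 0.1 (adjusted p = 0.147), and with only the compared libraries (adjusted p = 0.189).

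DMSO-treated clones again held less than untreated ones, by a log2 difference of -1.68 in clone 1 (adjusted p = 0.000190) and -2.76 in clone 4 (adjusted p = 5.91e-06). Set against untreated cells, CPI203 libraries of clone 1 lay higher, by 0.98 (adjusted p = 0.0105), and those of clone 4 lower, by -0.87 (adjusted p = 0.0330). Neither of these calls was stable: the clone 1 call was lost without clone 1 untreated replicate 1 or either clone 1 CPI203 library (adjusted p = 0.0516 to 0.114). The clone 4 call was lost without either clone 4 untreated library or CPI203 replicate 1 (adjusted p = 0.0721 to 0.211). Clone 4 exceeded clone 1 in untreated cells, by 1.65 (adjusted p = 0.00119). In DMSO the difference was 0.57 (adjusted p = 0.167) and in CPI203 -0.21 (adjusted p = 0.684). The DMSO difference passed only without clone 4 DMSO replicate 2, at 0.82 (adjusted p = 0.0465).

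The ratio of AC004510.2 to UCA1 varied between libraries. Whether AC004510.2 is a transcript apart from UCA1 was not tested, and its identifier is absent from GENCODE 29. In clone 1, AC004510.2 came to 3.95% and 6.40% of the UCA1 FPKM untreated, 7.10% and 9.65% in DMSO, and 21.5% and 22.3% in CPI203. In clone 4 it came to 5.34% and 6.70% untreated, 7.66% and 6.75% in DMSO, and 10.4% and 20.8% in CPI203. The CPI203 libraries of each clone held the highest shares and did not overlap the others of that clone, with replicates of clone 4 far apart. This shift of the ratio was not tested.

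**Figure D2:**
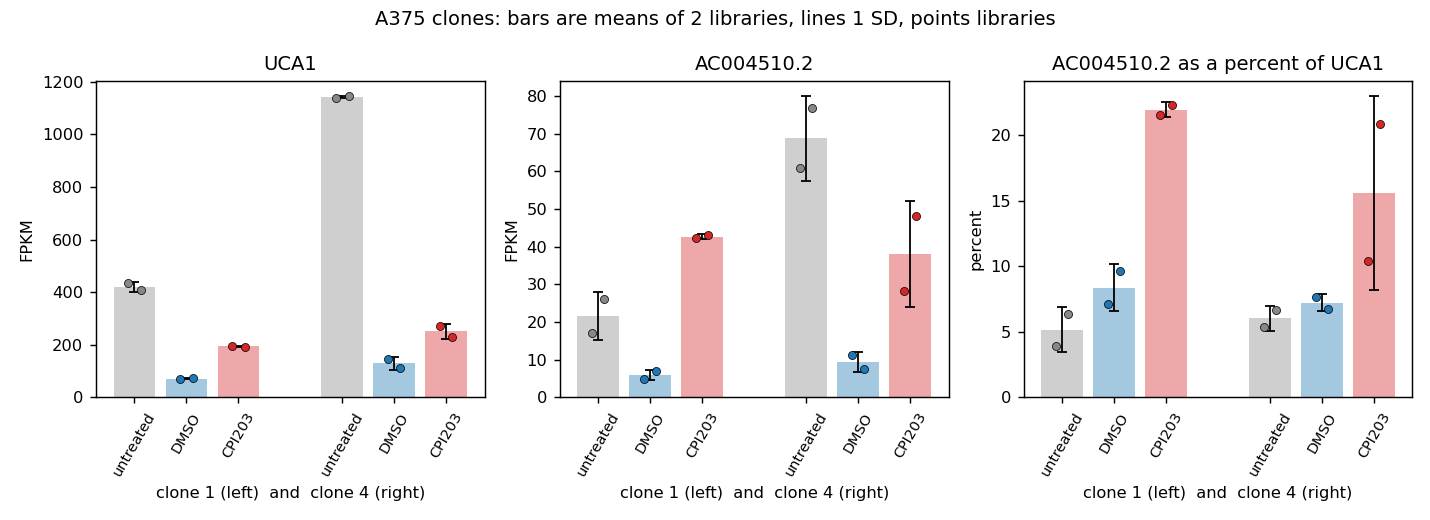
FPKM of UCA1 and of AC004510.2, and AC004510.2 as a percent of UCA1, in clones 1 and 4 by condition, with bars for means of 2 libraries, lines for 1 SD and points for libraries. UCA1 is highest untreated and lowest in DMSO in both clones, and the percent is highest in CPI203, at 21.5 and 22.3 in clone 1 and 10.4 and 20.8 in clone 4.

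CYP4F2, which hydroxylates arachidonic acid and vitamin K, was the only CYP4F member to enter the A375 fit. In parental libraries it ranged from 0 to 0.0624 FPKM. In clone 1 it stood at 4.73 and 4.70 FPKM untreated, 0.182 and 0.264 in DMSO, and 0.300 and 0.169 in CPI203. Clone 4 held 1.21 and 1.53 FPKM untreated, 0.248 and 0.217 in DMSO, and 0.163 and 0.288 in CPI203. The untreated clones stood well above their treated counterparts, while DMSO and CPI203 libraries overlapped in both clones.

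CYP4F2 reached 1 FPKM only in the untreated clone libraries, the group it is compared with here, so the filter favoured this difference; it was also called without the filter (adjusted p = 5.91e-08 in clone 1 and 3.46e-05 in clone 4). With the filter it was lower in DMSO than untreated, by a log2 difference of -2.22 in clone 1 (21.1-fold lower, adjusted p = 8.30e-09) and -0.94 in clone 4 (5.87-fold lower, adjusted p = 1.10e-05). Unlike UCA1, it did not pass for CPI203 against DMSO: the log2 change was 0.01 ± 0.09 in clone 1 (adjusted p = 0.952), -0.01 in clone 4 (adjusted p = 0.954) and 0.03 in parental cells (adjusted p = 0.819). The order of the clones was the opposite of that for UCA1. Untreated clone 4 lay below clone 1 by -1.27 (3.45-fold lower, adjusted p = 3.62e-06), where UCA1 lay above, and the clones did not differ past the threshold in DMSO or CPI203.

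CYP4F3, known for inactivating leukotriene B4 in neutrophils, stayed below 1 FPKM in every library. It ranged from 0 to 0.0307 FPKM in parental A375. In clone 1 it stood at 0.384 and 0.418 FPKM untreated, 0.101 and 0.104 in DMSO, and 0.124 and 0.0345 in CPI203. Clone 4 held 0.0839 and 0.103 untreated, 0.231 and 0.186 in DMSO, and 0.118 and 0.0956 in CPI203. Clone 1 was thus highest untreated and clone 4 highest in DMSO.

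CYP4F3, CYP4F11 and CYP4F12 never reached 1 FPKM in 2 A375 libraries, so they were fitted only without the filter, over 38375 genes. There CYP4F3 was lower in DMSO than untreated in clone 1, at -0.34 (adjusted p = 0.000184, where 18.7% of genes passed), and higher in clone 4, at 0.14 (adjusted p = 0.0410, where 16.7% passed). The clone 4 call was lost without untreated replicate 1 or 2 or DMSO replicate 1 (adjusted p = 0.102 to 0.199), and with a pseudocount of 0.1, quantile or median-ratio scaling, or the replicate block (adjusted p = 0.0527 to 0.138). Untreated clone 4 lay below clone 1 by -0.36 (adjusted p = 0.000793, where 3.98% passed). None of these 3 genes passed for CPI203 against DMSO in a clone, where 8.48% and 9.40% of genes did. The CYP4F3 change of -0.13 in clone 4 had an adjusted p of 0.103, and passed in limma without the trend and robust options (adjusted p = 0.0448).

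CYP4F12, an enzyme that also oxidises some antihistamines, was listed at 0 in all 6 parental libraries, so no fold is given. It ranged from 0 to 0.176 FPKM in clone 1 and from 0.0240 to 0.202 in clone 4. In DMSO it was lower than untreated, by -0.14 in clone 1 (adjusted p = 0.0239) and -0.17 in clone 4 (adjusted p = 0.0101), in the fit without the filter. The first was lost without clone 1 untreated or DMSO replicate 2 (adjusted p = 0.193 and 0.185), and the second without clone 4 untreated or DMSO replicate 2 (adjusted p = 0.0834 and 0.0516). CYP4F11, which acts on long-chain fatty acids and vitamin K, ranged from 0.0212 to 0.118 FPKM in parental cells, 0.0976 to 0.327 in clone 1 and 0.226 to 0.460 in clone 4. Clone 4 lay above parental cells throughout and clone 1 overlapped them. CYP4F11 passed in none of the tested A375 contrasts: for DMSO against untreated in clone 4 the log2 difference was -0.17 (adjusted p = 0.143), which passed with quantile normalization, at -0.24 (adjusted p = 0.0433).

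The RefSeq promoters of CYP4F2 and CYP4F11 are printed because these paralogs differed in level in untreated clone 1, at means of 4.71 and 0.252 FPKM, while in DMSO their clone 1 libraries overlapped. CYP4F2 is closer in coding sequence to CYP4F3. Of the 6 members, 3 matched the promoter table (GRCh38.p14, 250 bases before to 50 after the start). Both genes lie on the minus strand, and the sequences read 5′ to 3′ with runs of at least 12 bases common to both in capitals.
CYP4F2, chr19:15898025-15898324: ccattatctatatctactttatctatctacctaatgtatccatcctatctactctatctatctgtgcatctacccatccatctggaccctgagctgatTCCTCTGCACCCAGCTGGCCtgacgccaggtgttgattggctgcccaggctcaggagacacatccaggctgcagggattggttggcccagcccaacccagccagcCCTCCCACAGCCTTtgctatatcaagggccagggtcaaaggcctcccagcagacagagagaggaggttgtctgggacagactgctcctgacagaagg
CYP4F11, chr19:15934818-15935117: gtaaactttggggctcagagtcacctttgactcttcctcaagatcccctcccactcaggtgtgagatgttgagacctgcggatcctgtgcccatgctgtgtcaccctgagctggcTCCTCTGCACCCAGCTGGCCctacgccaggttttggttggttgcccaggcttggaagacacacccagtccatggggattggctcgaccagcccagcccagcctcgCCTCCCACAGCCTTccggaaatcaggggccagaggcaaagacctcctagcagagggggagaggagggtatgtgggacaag
They are 64.9% identical when aligned, and 34 bases lie in the shared runs. Both strands were searched for the AP-1 letters TGANTCA, the TEAD letters GGAATG, the E-box CACGTG and the TFAP2 letters GCCNNNGGC, none of which contains another. These letters occur in 7.71%, 14.0%, 7.26% and 23.2% of 35116 promoters. The CYP4F2 window holds none of them and the printed CYP4F11 window holds only the TFAP2 letters, in 1 place. The second CYP4F11 entry holds the AP-1 letters in 1 place, and the CYP4F3 entry holds them in 1 place and the TFAP2 letters in 2.

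In NOMO-1, UCA1 was low and CPI203 lowered it, the opposite direction to the A375 clones. It stood at 0.948 and 1.08 FPKM in parental DMSO and at 0.0132 and 0.0447 in parental CPI203. In tolerant cells it stood at 0.830 and 0.928 FPKM in DMSO and 0.253 and 0.205 in CPI203. In both populations every CPI203 library lay below every DMSO library.

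No member reached 1 FPKM in 2 NOMO-1 libraries, so these tests come from a fit without the filter over 34587 genes, chosen after the values were seen. UCA1 changed by -0.97 ± 0.07 in parental cells (adjusted p = 0.000227, where 31.2% of genes passed, 17.0% lower). In tolerant cells it changed by -0.61 ± 0.07 (3.84-fold lower by group means, adjusted p = 0.00219, where 18.2% passed, 10.3% lower). The difference of these effects, 0.36, did not pass (adjusted p = 0.0624, where 13.9% passed), but passed with a pseudocount of 0.1, at 1.54 (adjusted p = 0.0226). It also passed without NOMO-1 parental DMSO replicate 1, at 0.40 (adjusted p = 0.0416), and in limma without the trend and robust options (adjusted p = 0.0302). In DMSO the tolerant and parental cells did not differ past the threshold, at -0.10 (adjusted p = 0.325, where 35.8% passed). Under CPI203 the tolerant cells held more, by 0.26 (adjusted p = 0.0290, where 35.3% passed), a call lost without any single CPI203 library (adjusted p = 0.0588 to 0.105). The change from DMSO to CPI203 spans 24 h in NOMO-1 and 6 h in A375, and the difference between the lines was not tested.

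CYP4F3 was also lower with CPI203 in NOMO-1, the line of the myeloid lineage. It stood at 0.257 and 0.409 FPKM in parental DMSO and at most 0.0141 in parental CPI203, a log2 change of -0.40 (adjusted p = 0.00560). In tolerant cells it stood at 0.320 and 0.246 FPKM in DMSO and 0.0160 and 0.00900 in CPI203, a change of -0.34 (adjusted p = 0.0173). The second call was lost without any single library of those 4 (adjusted p = 0.0566 to 0.0968).

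CYP4F2 and CYP4F12 were listed at 0 in all 4 CPI203 libraries and reached at most 0.112 and 0.0724 FPKM in DMSO. CYP4F2 changed by -0.08 in parental cells (adjusted p = 0.0224, lost without either parental CPI203 library) and -0.14 in tolerant cells (adjusted p = 0.00514). CYP4F12 changed by -0.09 in tolerant cells (adjusted p = 0.0116, lost without either tolerant CPI203 library) and by -0.05 in parental cells, which did not pass (adjusted p = 0.0587). CYP4F11 stayed at or below 0.0844 FPKM. AC004510.2 passed in no NOMO-1 contrast: it stood at 0 and 0.0489 FPKM in parental DMSO, 0.189 and 0.0446 in parental CPI203, 0.405 and 0.270 in tolerant DMSO, and 0.693 and 0.139 in tolerant CPI203. Its CPI203 and DMSO libraries overlapped in both populations.

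**Figure D3:**
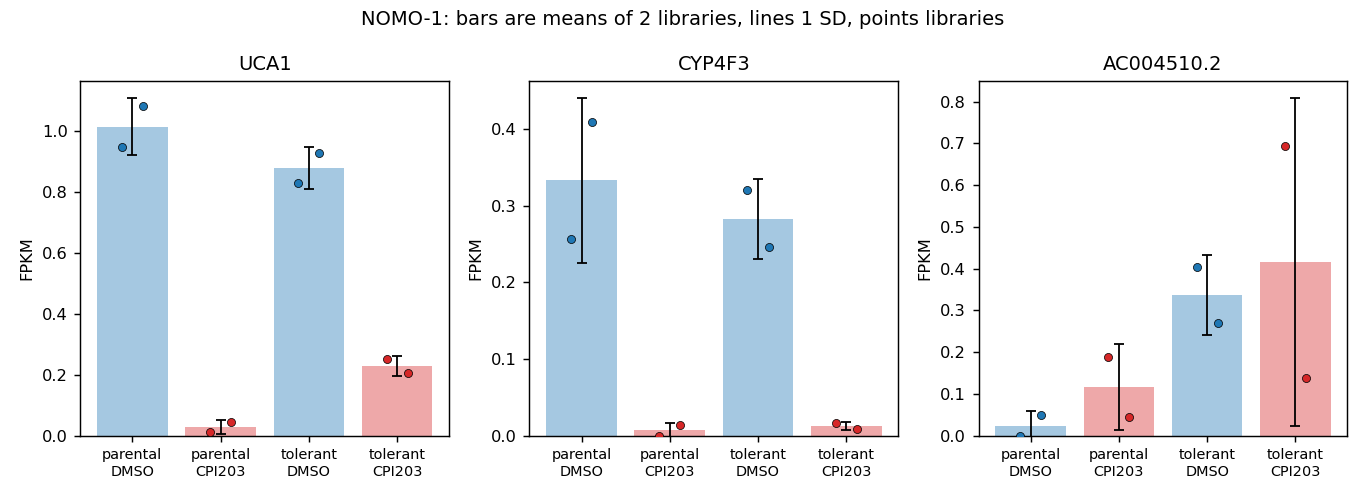
FPKM of UCA1, CYP4F3 and AC004510.2 in NOMO-1 by population and treatment, with bars for means of 2 libraries, lines for 1 SD and points for libraries. UCA1 and CYP4F3 are lower in every CPI203 library than in any DMSO library, and AC004510.2 overlaps.

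Genes around UCA1 were compared between clones and parental cells. Within 1000 kb the table holds 102 other genes, of which 36 were fitted. In DMSO, 5 neighbours were higher and 2 lower in clone 1 than in parental cells, where 11.7% of all genes were higher and 13.5% lower. In clone 4, 6 were higher and 2 lower, beside 15.4% and 16.0% of all genes. Their median log2 difference was 0.08 in each clone, beside 0.02 and 0.01 over all genes. Untreated, 8 were higher and 10 lower in clone 1 and 10 higher and 6 lower in clone 4, in comparisons that called 48.1% and 51.1% of all genes in either direction. In DMSO the same direction in both clones was seen for 4 genes: SYDE1, AC011537.3, AC005336.1 and TMEM38A. Of these, AC011537.3 and AC005336.1 reached 1 FPKM in no parental A375 library and TMEM38A in no clone library, so the filter let them in through the higher group and their calls lend no support. The share of all genes passing in one direction in both clones was not computed, so the count of 4 says nothing particular about the neighbours.

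The non-coding gene AC011537.3, 58.1 kb before UCA1, was listed at 0 in 5 of 6 parental A375 libraries. Its mean in DMSO was 3.45 ± 0.487 FPKM in clone 1 and 3.17 ± 1.59 in clone 4, log2 differences of 2.15 and 2.01. It did not pass for CPI203 against DMSO in either clone.

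AC005336.1, 68.2 kb after UCA1, followed the pattern of UCA1 across treatments at a lower level. Its mean was 6.98 ± 0.483 FPKM untreated, 0.637 ± 0.141 in DMSO and 3.41 ± 0.142 in CPI203 in clone 1. In clone 4 it was 3.32 ± 0.497, 0.362 ± 0.0668 and 2.81 ± 0.190 FPKM, and in parental DMSO 0.0113 ± 0.0160. In both clones it was highest untreated and lowest in DMSO. CPI203 changed it by 1.43 in clone 1 (limma adjusted p = 2.66e-06) and 1.49 in clone 4 (adjusted p = 1.87e-06). The differences from the parental response, 1.39 and 1.44, both passed (adjusted p = 0.000176 and 0.000124). By mean, this gene reached 1 FPKM only in untreated and CPI203 clone cells. It thus entered the fit through those groups, and CPI203 is the side tested as higher, so these calls lend no support. Parental values this close to 0 leave little room for a response once 1 is added, and results with 0.1 added are not given for it.

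The overlapping antisense gene AC004510.3 stood at 0.308 FPKM or less in parental libraries, 0.145 to 1.12 in clone 1 and 1.39 to 4.02 in clone 4. It too reached 1 FPKM only in clones, and its parental and clone 4 libraries did not overlap. SYDE1, a GTPase-activating protein gene 714 kb before UCA1, had a mean of 22.9 ± 0.0701 FPKM in parental DMSO, 34.0 ± 4.09 in clone 1 and 30.9 ± 2.06 in clone 4. TMEM38A, which encodes an intracellular cation channel and lies 825 kb after UCA1, was lower in the clones, at 1.90 ± 0.196 FPKM against 0.713 ± 0.0352 and 0.689 ± 0.00267.

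**Figure D4:**
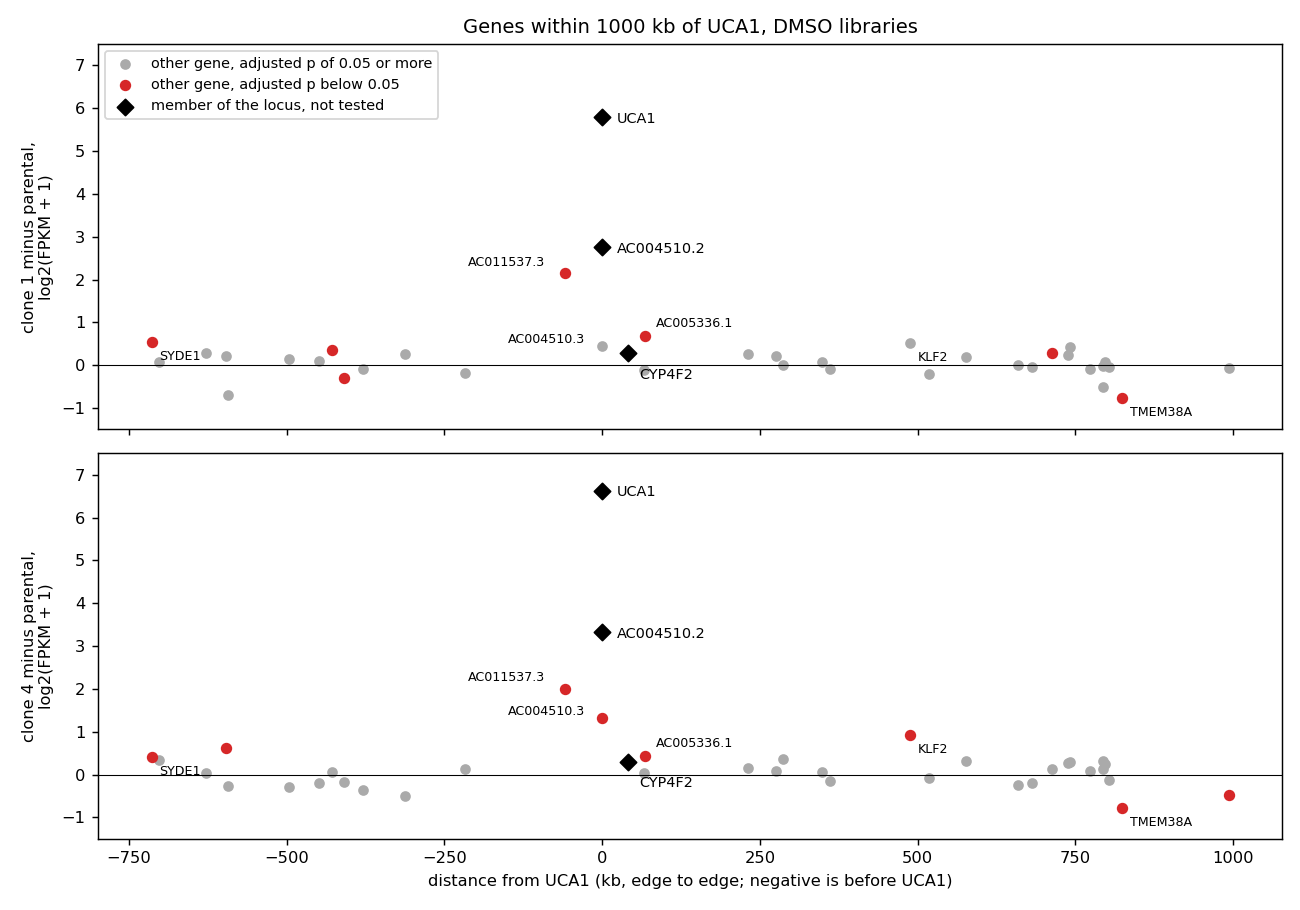
Log2(FPKM + 1) difference between clone and parental A375 cells in DMSO, for clone 1 (upper) and clone 4 (lower), for 36 other fitted genes and 3 members by distance from UCA1 in kb, with red points for other genes with an adjusted p below 0.05. UCA1 and AC004510.2 stand highest, AC011537.3 at 2.15 and 2.01 comes next, and most neighbours lie near 0.

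Over the 9 A375 group means UCA1 had a range of 9.77 on the log2(FPKM + 1) scale, rank 1 of 16935 genes. That range is mostly the step from parental cells to the clones for which UCA1 and AC004510.2 were picked, so it, and the likeness of these 2 genes, restate the choice. Likeness to it was measured as the root-mean-square difference of the 9 group means, each gene centred on its own mean. AC004510.2 was nearest, at 1.49, and the median over all genes was 3.68. CYP4F2 stood at 3.23, rank 486. Of genes outside the locus, the nearest were the integrin gene ITGB4 at 1.64, the cancer-testis gene SPANXC at 1.70, the guanine deaminase gene GDA at 1.71, the chemokine gene CCL5 at 1.88 and the cancer-testis gene PAGE1 at 1.89.

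All 5 were higher in every clone group than in any parental group, and they differed from UCA1 across treatments. ITGB4 had mean levels of 0.837, 0.566 and 0.426 FPKM in parental untreated, DMSO and CPI203 cells. It had 68.6, 69.1 and 32.5 FPKM in clone 1 and 50.9, 95.5 and 34.1 in clone 4, with CPI203 lowest in each. GDA had 24.9, 27.0 and 21.0 FPKM in clone 1 and 37.6, 38.4 and 28.1 in clone 4. None of the 5 had untreated as the highest and DMSO as the lowest mean in both clones. PLD5, a gene on chromosome 1 that ranked 9 in likeness and was named after its values were seen, did have that order, at 15.4, 4.01 and 6.39 FPKM in clone 1 and 15.9, 7.14 and 12.2 in clone 4 (untreated, DMSO and CPI203). Over the 16935 fitted genes, 8.73% had untreated highest, CPI203 intermediate and DMSO lowest by mean in both clones, so the order is not particular to the locus. UCA1 and AC005336.1 had it too, as did CYP4F12 at means of 0.174 FPKM or less, with DMSO and CPI203 libraries of clone 1 overlapping.

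**Figure D5:**
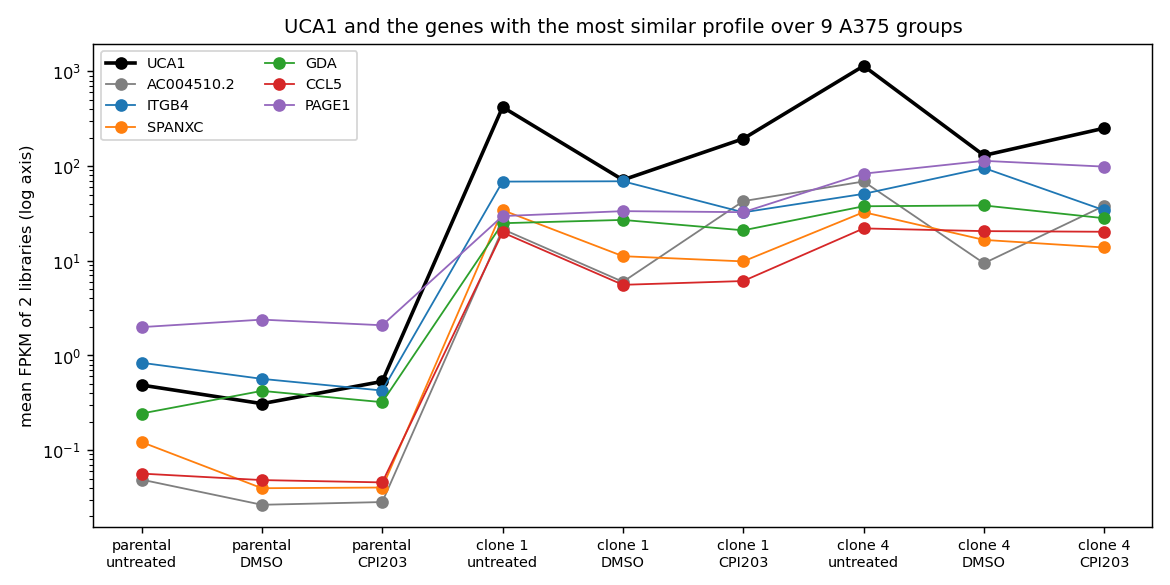
Mean FPKM of 2 libraries, on a log axis, in the 9 A375 groups for UCA1, AC004510.2 and the 5 genes outside the locus nearest to UCA1. All step up from parental cells to the clones, and the dip of UCA1 in DMSO is shared by AC004510.2 but not by ITGB4 or GDA.

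Pathway genes around the members were read from lists and compared between clones and parental cells in DMSO. Of 20 genes of leukotriene and arachidonate metabolism, 7 were fitted, and in each clone 1 was higher and 3 were lower. Over all genes 11.7% were higher and 13.5% lower in clone 1, and 15.4% and 16.0% in clone 4. These shares apply to each list that follows, and with so few genes a list the counts say nothing particular about a list. PLA2G4A, the phospholipase that releases arachidonate, had a mean of 5.65 ± 0.115 FPKM in parental cells, 0.305 ± 0.0608 in clone 1 (log2 difference -2.35, adjusted p = 6.02e-10) and 0.758 ± 0.0942 in clone 4. Both cyclooxygenase genes were lower too: PTGS1 differed by -1.07 in clone 1 and -0.91 in clone 4, and PTGS2 fell from a mean of 1.58 ± 0.691 FPKM to 0.266 ± 0.0667 and 0.366 ± 0.130. In DMSO, PLA2G4A and PTGS2 averaged 1 FPKM or more only in parental cells, the higher group, so the filter could favour these differences. LTA4H, which makes leukotriene B4 and was not among the 3 smallest p-values, was the gene that was higher, at 0.38 and 0.49. The median of the list was 0.04 in clone 1 and -0.03 in clone 4.

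All 6 genes of the vitamin K cycle were fitted. In clone 1, 2 were higher and 1 lower, with AIFM2, a vitamin K reductase, at 0.59, VKORC1L1, an epoxide reductase, at 0.60, and the carboxylase GGCX at -0.24. In clone 4, 2 were higher and none lower, AIFM2 among them at 0.65. Of 4 electron donors of P450 enzymes, 1 was higher and 1 lower in each clone, and POR, the main donor, fell by 0.35 in both. POR rose with CPI203 over DMSO in both clones, by 0.76 and 0.61 (adjusted p = 0.000369 and 0.00166). Of 8 other CYP4 genes only CYP4V2 was fitted, and it did not pass in either clone.

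Of 10 transcription factor genes reported to act on UCA1, 9 were fitted. In clone 1, 1 was higher and none lower, and in clone 4, 1 was higher and 1 lower. TEAD4, a partner of YAP1, was higher in both, by 0.42 and 0.51. None of the 9 passed for CPI203 against DMSO in either clone, where 22.0% and 23.6% of all genes did. In parental cells 1 was higher and 1 lower, where 36.4% of all genes passed. With so few genes these counts say nothing particular about the list. Of 9 genes reported as partners or downstream of UCA1, 7 were fitted, with none higher and 1 lower in each clone. That gene was CDKN1B, a cell cycle inhibitor, at -0.47 and -0.54 (adjusted p = 0.000888 and 0.000246).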

How the data were processed

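The authors deposited 1 table of FPKM per gene for 26 libraries, with symbols, Ensembl identifiers and hg19 coordinates. Per the submitters' processing notes, TopHat 1.4.1 and Cufflinks were used with hg19. No source used here gives the options or version of Cufflinks, the gene annotation or the use of strand. RNA was extracted with TRIzol or RNeasy, per the labels' protocols, which do not say which library had which.

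Values were analysed as log2(FPKM + 1) with limma 3.58.1 in R 4.3.3, trend and robust options, with a mean per group. The 18 A375 libraries had 9 residual degrees of freedom and 3.43 prior ones (median), and the 8 NOMO-1 libraries, fitted separately, 4 and 4.87. The filter kept genes that reached 1 FPKM in 2 libraries or more, 16935 and 16753, and 36 genes with missing NOMO-1 values were left out. Tests were two-sided with Benjamini-Hochberg adjustment over every gene fitted in the comparison, with calls below 0.05. Fold changes are ratios of group mean FPKM; log2 values understate changes of low genes. The model was run on simulated data for CPI203 against DMSO in clone 1, with shifts only in genes of higher mean level. That run did not cover NOMO-1 or changes in genes averaging below 1 FPKM.

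The members and lists were chosen with earlier results of these data known. Named genes were all members, the 5 genes outside the locus nearest to UCA1, neighbours passing in one direction in both clones in DMSO, and up to 3 genes per list with the smallest adjusted p in clone 1 against parental DMSO; AC004510.3, PLD5, POR under CPI203 and LTA4H were chosen after their values were seen. Coding sequences came from GENCODE 29, promoters from RefSeq. AC004510.2 has no sequence in the references used here. Some items are not reported here. Replicate numbers were not used to pair the libraries. Alternatives were a pseudocount of 0.1, no filter or 5 FPKM, quantile and median-ratio scaling, no trend or robust options in limma, a replicate block, only the compared libraries, omission of 3 libraries, and leaving out each library.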

Additional observations from a re-analysis of the deposited data

Results flagged for a closer look

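The CPI203 response differed between a clone and parental A375 cells, by the limma test of the difference itself, for 4 genes of the locus and its surroundings. The fit held 3 members and 36 neighbours, and 1.91% of all genes passed for clone 1 and 2.29% for clone 4. Except for AC005336.5, the 4 genes reached 1 FPKM in no parental library, where the pseudocount of 1 leaves little room for a response. For UCA1 the difference, clone 1 minus parental, was 1.21 on the log2(FPKM + 1) scale, and with 0.1 added and no filter it did not pass (adjusted p = 0.609). For AC004510.2 it was 2.65 in clone 1 and 1.88 in clone 4, and likewise neither passed with 0.1 added and no filter (adjusted p = 0.0560 and 0.207). With 0.1 added and the filter kept, the clone 1 difference of AC004510.2 passed. AC005336.1, 68.2 kb after UCA1, differed by 1.39 in clone 1 and 1.44 in clone 4. It entered the fit through untreated and CPI203 clone cells, so its calls lend no support, and results with 0.1 added are not given for it. AC005336.5, a processed pseudogene in GENCODE 29 that lies 66.0 kb after UCA1, differed by 1.06 in clone 1 (adjusted p = 0.0436).

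UCA1 was lower in every CPI203 library of NOMO-1, by -0.97 in parental and -0.61 in tolerant cells, and higher in every CPI203 library of the A375 clones. That difference between the lines was not tested, and the exposure was 24 h in NOMO-1 and 6 h in A375.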

How the results depend on the processing

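Counting the results that answer a comparison, 186 values under alternatives were the same as the main ones, 15 were not, and none reversed. For tests, same meant the same direction and side of the threshold. Counts had only to stay near the main count. Among the 186 are NOMO-1 counts, 8 with a library left out and 6 under other alternatives, that the filter fixed at 0. The untested clone minus parental values of UCA1 had to stay within the largest replicate SD of the groups compared. That difference chose the gene, so those values lend no support. Of the 15, 8 were such counts or untested values that moved, 4 were calls gained and 3 were calls lost. With a pseudocount of 0.1 the UCA1 difference of responses for clone 1 was 0.81 (adjusted p = 0.480), and the clone minus parental values of UCA1 for clones 1 and 4 became 7.47 and 8.32 in DMSO, 9.54 and 10.99 untreated, and 8.28 and 8.65 in CPI203. Without the 3 libraries furthest from their replicates, UCA1 passed for CPI203 in parental cells (0.31), for the difference of responses in clone 4 (0.96) and between the clones in CPI203 (0.48). With only the compared libraries it no longer passed for CPI203 in clone 4 (0.96) or between the clones in DMSO (0.84). Leaving out single libraries moved the clone 4 difference of responses between 0.54 and 0.92. Neighbours passing in one direction in both clones numbered 4 within 1000 kb and 2 within 500 kb, with no share over all genes computed for comparison. Calls on members over the NOMO-1 comparisons numbered 0 with the filter, which removes every member and so fixes that count, and 8 without it, on 4 genes. The fit without the filter called 13.9% to 35.8% of all genes in each of these comparisons, so the 8 calls say nothing particular about the members. The cause was not tested for the other changes.

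The replicate number was not used to pair the libraries. Deviations of same-numbered libraries from their group means correlated between groups at -0.73 to 0.72 in A375 (median 0.036). In NOMO-1 they correlated at 0.018 to 0.39 (median 0.18), not all over the 0.1 that was asked for. As every NOMO-1 value was positive, an absence of pairing was not shown there. With the replicate number as a block, the UCA1 response to CPI203 was 1.43 in clone 1 (limma adjusted p = 2.98e-05). The block ended 1 call on a member, that on CYP4F3 for DMSO against untreated in clone 4 without the filter. Depth is unknown, so no counting error can be given for the CYP4F values below 1 FPKM.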
